A study of Mus musculus with 36 samples.

Results

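Loss of MLL4 was examined in mouse embryonic stem cells (ESC) that already lacked MLL3, with 4 RNA-Seq libraries of the 36 samples in the series. The controls, called f/f here, had the genotype MLL3-/-;MLL4flox/flox, so they lacked MLL3 but kept a conditional MLL4 allele. The other cells, called DKO here, had the genotype MLL3-/-;MLL4-/-. Both genotypes were grown undifferentiated, in medium with serum and LIF on irradiated fibroblast feeders, and each had 2 libraries. The members were taken as all libraries labelled RNA-Seq, ESC and either of these genotypes. Each genotype also had 2 libraries of embryoid bodies made by 4 days of suspension culture without LIF. Those 4 libraries are used below to estimate the spread between libraries and for a comparison with ESC.

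Several things limit these cells as a model of MLL4 loss. No group in the comparison had MLL3, so the effect of MLL4 loss beside an intact MLL3 was not measured. The sources used here do not give how and when the floxed allele was deleted. The names of the deposited DKO ESC tables carry the same number in both replicates, and the labels do not say what it marks. If it marks a clone, then clone and genotype cannot be told apart. The labels mention removal of feeders for the chromatin samples but say nothing of it for RNA. Whether the replicates were separate cultures is not stated, and the spread that the p-values rest on may be only technical.

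MLL3 and MLL4, encoded by Kmt2c and Kmt2d, are large methyltransferases that place methyl groups on lysine 4 of histone H3, mostly at enhancers. They work in complexes with shared core subunits and with partners such as the demethylase UTX and the coactivator NCOA6. In ESC, enhancers hold genes of pluripotency and of the epithelial state of these cells active, while genes of differentiated cells stay low. The comparison of DKO with f/f asks which RNA levels differ once the remaining enzyme of this pair is also lost.

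Levels are given as pairs, replicate 1 first. Replicate 1 was deposited as RPKM per RefSeq transcript and replicate 2 as FPKM per gene (both scale reads by transcript length and library depth). The replicates were counted differently, so levels are compared within a replicate pair. Read numbers are deposited counts in replicate 1 and estimates from FPKM in replicate 2. A difference is therefore DKO minus f/f within a replicate pair, on the scale of log2(level + 1), and the fitted log2 difference ± its standard error combines both pairs (n = 2 libraries per group). A gene was called when its adjusted p (limma, Benjamini-Hochberg over 12466 genes tested) was under 0.05 and its sign was the same in both pairs. "Rose" and "fell" refer only to called genes. For these genes the call requires the same sign in both ESC pairs, so that agreement is no added support where it is mentioned below. Other genes appear with their values and their adjusted p.

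Between 18418131 and 21573244 reads lay behind each ESC library, and between 11366199 and 23147514 behind each body library. The stem cell label matched its defining markers. Pou5f1, Nanog, Zfp42, Esrrb and Sox2 stood at 153 or more in all 4 libraries, with that lowest value for Sox2 in replicate 1 of DKO, and none was called. Dppa5a stood at 1025 and 1975 in f/f and 137 and 559 in DKO, the widest gap of the 6 markers, with an adjusted p of 0.169. Of 21 tested fibroblast genes, none was called. The 8 defining feeder markers summed to 36.2 and 266 in f/f and to 49.3 and 228 in DKO. None of the 8 was at 0, and Col1a1 stood at 7.82 and 89.7 in f/f and 7.78 and 68 in DKO. Feeder genes were thus read in every library, and their part in other results was not tested. Summed markers lay between 3.68 and 4.66 for primitive endoderm (4 genes), between 0.386 and 3.35 for trophoblast (4 genes), and between 0.998 and 8.02 for mesoderm (3 genes). Mesp1, of the mesoderm, was at 0 in replicate 1 of f/f and replicate 2 of DKO. The sums lay between 6.50 and 15.8 for neural cells (3 genes) and between 1.07 and 3.21 for blood (2 of 3 genes matched). In bulk RNA, fewer cells of a type and less RNA per cell cannot be told apart.

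The deleted genes themselves gave no check of the labels. Kmt2d stood at 13.5 and 18.7 in f/f and 8.89 and 10.7 in DKO (log2 difference -0.65 ± 0.22, adjusted p 0.155), and Kmt2c, deleted in all 4 libraries, at 1.89 and 3.44 in f/f and 1.8 and 2.82 in DKO (log2 difference -0.13 ± 0.27, adjusted p 0.819). Kmt2d was lower in DKO in each pair. These are levels over whole transcripts, and the sources used here do not name the deleted exons.

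DKO ESC had higher RNA of 196 genes and lower RNA of 333 genes than f/f ESC. This is 4.24% of the genes tested, 1.57% up and 2.67% down. The increases were headed by the Ras-family GTPase gene Mras and the decreases by the germline and naive-state gene Dppa3. Genes of epithelial identity were among those that fell, such as Cdh1, Esrp1 and Grhl2. Of all 12466 genes, 75.1% had the same sign in both pairs, and the median difference was 0.02. The median called gene changed by 2.06-fold upward or 2.15-fold downward on the log2(level + 1) scale. Larger changes on that scale were more numerous among the decreases, with 44 genes lower by at least 4-fold and 9 by at least 8-fold, against 12 and 2 genes higher. The added 1 shrinks changes at low levels, and the genes that rose had the lower median f/f level. Hormad2, at 1.05 and 0.656 in f/f and 12.2 and 13.2 in DKO, is not among those 2. These counts therefore do not compare the sizes of the changes in level.

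A second reading used no test. It asked for a difference of at least 2-fold on the same scale, in the same direction in each pair. It kept 144 genes higher (1.16%) and 246 lower (1.97%). Of the called genes, 87 that rose and 169 that fell also met it. The test rests on few libraries. With replicate 1 of DKO ESC left out it called 9 genes, with 1866 at an unadjusted p under 0.05. With replicate 2 of DKO ESC, replicate 1 of f/f ESC or replicate 2 of f/f ESC left out, limma called 0, with 1743, 1657 and 1879 genes at an unadjusted p under 0.05. Without replicate 1 or replicate 2 of f/f bodies it called 264 and 275. The unadjusted p was under 0.05 for 2743 genes in the full fit.

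**Figure D1:**
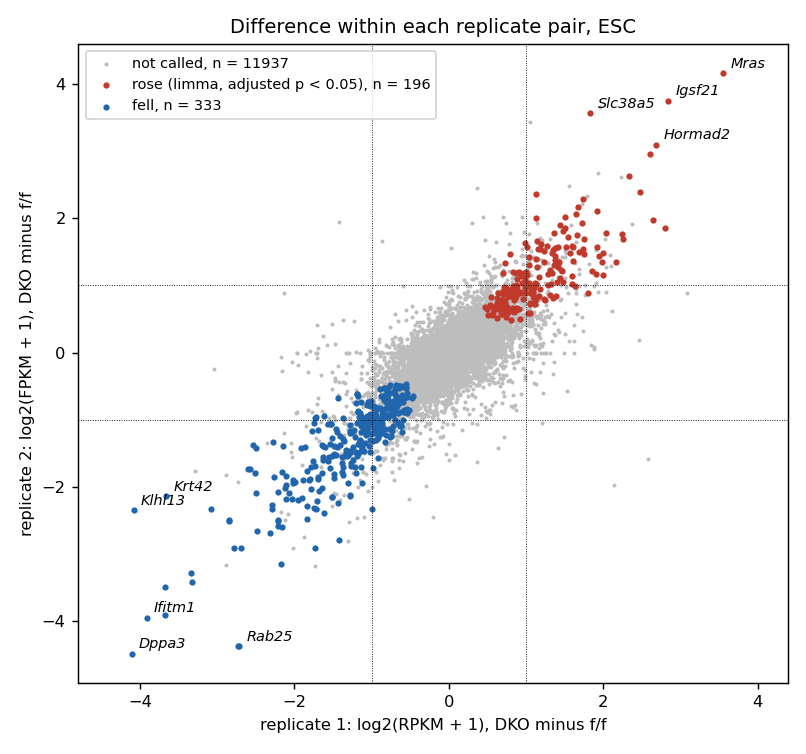
Each point is 1 of 12466 tested genes, with the difference in log2(RPKM + 1) between DKO and f/f in replicate 1 on the x axis and the difference in log2(FPKM + 1) in replicate 2 on the y axis; dotted lines mark a 2-fold difference. The 196 genes that rose and the 333 that fell lie along the diagonal, with Mras at one end and Dppa3 at the other.

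In replicate 2 the median FPKM of the genes that rose was 4.59 in f/f and 12.1 in DKO. That of the genes that fell was 21.3 in f/f and 8.52 in DKO, so which set stood higher depended on the genotype. The median f/f FPKM of all tested genes was 9.84. The f/f level is part of the difference used for the call. A gene low in f/f could also pass the filter on low levels through the libraries where it is high. Nothing is therefore read from these medians. Among 5663 genes with a mean ESC FPKM of 1 to 10, 108 rose and 122 fell (4.06% called). Among 5576 genes of 10 to 100, 80 rose and 191 fell (4.86%), and among 617 genes of 100 or more, 5 rose and 18 fell (3.73%). Below 1, 3 of 610 genes rose and 2 fell (0.82%). Of all tested genes 4.24% were called. Most called genes encode proteins, 191 of those that rose and 322 of those that fell. Long noncoding RNAs made up 3 of the increases and 6 of the decreases. The shares of these types among all tested genes are not given here, so nothing is read from these counts.

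Mras, which helps to activate RAF kinases, had 343 and 158 reads in f/f and 5169 and 4291 in DKO. The next largest increases included receptors, a ligand and a channel. Cntfr, the receptor subunit that binds ciliary neurotrophic factor and signals through gp130 and the LIF receptor, stood at 2.96 and 3.33 in f/f and 11.4 and 17.2 in DKO. It rose by 1.86 ± 0.28 (adjusted p 0.0258). Vegfc, the growth factor ligand of the lymphatic receptor VEGFR3, rose from 3.12 and 3.03 to 12.7 and 14.3 (1.83 ± 0.29, adjusted p 0.029). Both genes were higher in DKO in each pair, by similar amounts. Trpa1, a cation channel of sensory neurons opened by irritants, rose from 0.739 and 0.163 to 4.53 and 4.21 (1.92 ± 0.19, adjusted p 0.0116). Gpr83, a G-protein-coupled receptor, had 10 and 3 reads in f/f and 142 and 118 in DKO, a log2 difference of 1.72 ± 0.28. Igsf21, an adhesion protein of synapses, rose from 1.14 and 1.41 to 14.3 and 31.4. Its difference was 3.29 ± 0.59 (adjusted p 0.0394).

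Some of the other large increases were in genes of enzymes and carriers. Slc38a5, a transporter of glutamine and other neutral amino acids, stood at 0.439 and 0.273 in f/f and 4.12 and 14 in DKO, with 15 and 11 reads in f/f and 151 and 561 in DKO. It was higher in both pairs, and more so in replicate 2. Ptges, which makes prostaglandin E, rose from 1.25 and 2.95 to 9.76 and 11.8 (1.98 ± 0.33, adjusted p 0.0326). Chst5, which sulfates N-acetylglucosamine on glycans, rose from 0.365 and 0.144 to 5.89 and 6.07, and Camk2a, a calcium-dependent kinase best known from synapses, from 0.789 and 0.381 to 5.89 and 2.76. The calcium-binding protein gene Tesc rose from 3.69 and 9.55 to 28.2 and 40.4, and Isoc2a, of the isochorismatase family, from 7.79 and 8.1 to 23.9 and 31.9. All 6 genes were higher in DKO in each pair, which the call requires.

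Others were in genes of transcription factors and cell cycle proteins. Atf3, a stress-induced transcription factor, rose from 7.75 and 8.35 to 40.5 and 30.6 (2.00 ± 0.18, adjusted p 0.0116), and Gata2, a factor of blood and trophoblast, from 2.13 and 0.829 to 5.86 and 8.39 (1.75 ± 0.33, adjusted p 0.043). E2f2, an activator of S-phase genes, rose from 3.53 and 3.83 to 17.1 and 12.4 (1.74 ± 0.30), while Cdkn1c, an inhibitor of cyclin-dependent kinases, rose from 16.7 and 10.6 to 66.1 and 48.7 (2.01 ± 0.31). These last 2 act in opposite directions on the cell cycle. Hmgn3, a nucleosome-binding protein, rose from 1.91 and 1.68 to 8.23 and 8.05, Zbtb7c from 0.119 and 0.142 to 2.72 and 4.57 and Zfp229, a zinc finger gene, from 5.17 and 2.31 to 22.4 and 8.88. Hoxb13, at the end of the Hoxb cluster, stood at 0.455 and 0.0706 in f/f and 4.78 and 1.73 in DKO, and Mira, a noncoding RNA of the Hoxa cluster, at 0.204 and 0.407 in f/f and 3.93 and 3.84 in DKO. They had 2 and 7 reads in replicate 2 of f/f, so their f/f levels are known only roughly.

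Of the 196 genes that rose, 20 stood below 1 in both f/f libraries, so their RNA was scarce in cells that kept MLL4. They include Camk2a, Catsperz, Chst5, Gpr83, Hoxb13, Slc38a5, Trpa1 and Zbtb7c. Sox7, a factor of extraembryonic endoderm and blood vessels, was another, rising from 0.565 and 0.908 to 2.56 and 4.55 (1.36 ± 0.23, adjusted p 0.0339). The highest DKO level of these genes in replicate 2 was the 14.0 FPKM of Slc38a5, so none of the 20 was abundant there. In the other direction, 22 of the 333 genes that fell stood below 1 in both DKO libraries, among them Slc28a1. The filter on low levels takes the mean over all 8 libraries. A gene this low in f/f or in DKO could therefore pass it through the libraries where it is high. The shares of all tested genes this low are not given here either, so nothing is read from the counts of 20 and 22.

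Among abundant genes, the increases were headed by Slc2a1, the gene of the glucose transporter GLUT1. Its levels were 239 and 176 in f/f and 439 and 348 in DKO, and it rose by 0.93 ± 0.12 (adjusted p 0.0181). Epha2, a receptor tyrosine kinase for ephrins, rose from 81.7 and 92.4 to 299.5 and 216 (1.54 ± 0.30, adjusted p 0.0472). Both genes were higher in DKO in each pair. Tsc22d1 rose from 181 and 68.5 to 508 and 143. Grb10, an imprinted adaptor that restrains insulin and IGF signalling, rose from 40.2 and 60.3 to 111 and 131 (1.28 ± 0.12), and the imprinted, retrotransposon-derived gene Peg10 from 129.8 and 72.5 to 256 and 165 (1.08 ± 0.15). Basp1 rose from 59 and 49.4 to 133 and 109, the redox protein gene Nxn from 47.2 and 33.5 to 123 and 117, and Irf2bpl from 33.9 and 41.4 to 93.3 and 108. The smallest of these differences were in Emb (0.69 ± 0.10), a membrane glycoprotein, and in Pdia3 (0.63 ± 0.11), a disulfide isomerase of the endoplasmic reticulum.

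**Figure D2:**
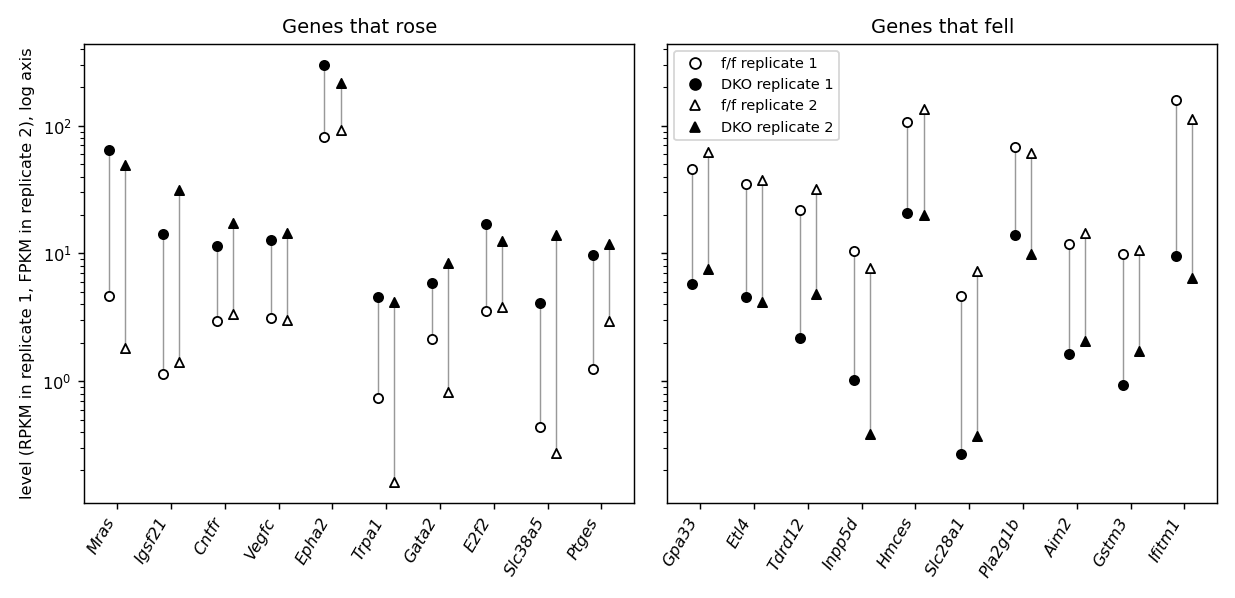
Level on a log axis (RPKM in replicate 1, circles; FPKM in replicate 2, triangles) of 10 genes that rose and 10 that fell, with f/f open and DKO filled and a line joining the libraries of a replicate pair. In each gene both filled symbols lie on the same side of their open partner, which the call requires. Epha2 is the most abundant gene on the left, and Ifitm1 and Hmces are high in f/f on the right.

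The decreases were headed by Dppa3, Ifitm1, Dnmt3l, Tfap2c, Enpp3 and Rab25, each lower by at least 3.54 on the log2 scale. Dppa3 protects DNA methylation states in the germline and early embryo, DNMT3L assists the de novo DNA methyltransferases, and Tfap2c encodes a transcription factor of trophoblast and germ cells. Ifitm1 encodes an interferon-inducible membrane protein, Enpp3 an ectoenzyme that cleaves nucleotides, and Rab25 a GTPase of recycling vesicles in epithelia. In reads, Dppa3 had 823 and 690 reads in f/f and 36 and 14 in DKO, and Rab25 had 329 and 554 reads in f/f and 36 and 5 in DKO.

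Gpa33, a surface antigen of intestinal epithelium, stood at 45.6 and 62.5 in f/f and 5.74 and 7.49 in DKO and fell by 2.85 ± 0.50 on the log2 scale (adjusted p 0.0369). Inpp5d, the lipid phosphatase SHIP1 that is best known from blood cells, fell from 10.4 and 7.76 to 1.03 and 0.385 (-2.57 ± 0.21, adjusted p 0.0116). Slc28a1, a nucleoside transporter, fell from 4.65 and 7.28 to 0.267 and 0.375, that is from 244 and 447 reads to 15 and 23. All 3 were lower in DKO in each pair. Pla2g1b, a secreted phospholipase, fell from 68.6 and 61 to 14 and 9.93, and Rhpn2 from 19.8 and 8.9 to 3.27 and 1.05. Calml4, a calmodulin-like protein, fell from 16 and 8.08 to 1 and 0.81.

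Hmces, which shields abasic sites in single-stranded DNA, was among the most abundant of the large decreases, at 108 and 134 in f/f and 20.8 and 20 in DKO (-2.50 ± 0.18, adjusted p 0.0116). The drop was of like size in both pairs. Tdrd12, a Tudor-domain protein of the piRNA pathway that silences transposons in germ cells, fell from 21.9 and 32.1 to 2.19 and 4.84 (-2.68 ± 0.41, adjusted p 0.0278). Aim2, a sensor of DNA in the cytosol, fell from 11.9 and 14.3 to 1.64 and 2.05, and Cpsf4l, related to a subunit of the polyadenylation complex, from 12.9 and 19.3 to 1.99 and 2.59. Etl4 fell from 35 and 37.9 to 4.54 and 4.19 and the phosphatase-family gene Dusp27 from 10.7 and 11.6 to 0.629 and 1.25.

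Klhl13, which recruits substrates to a cullin ubiquitin ligase, stood at 188 and 63.3 in f/f and 10.1 and 11.7 in DKO, with a larger drop in replicate 1 than in replicate 2. Septin1, a GTP-binding filament protein, stood at 57.5 and 118 in f/f and 4.84 and 10.2 in DKO (-3.37 ± 0.62, adjusted p 0.0407). Both were lower in DKO in each pair.

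Of the abundant genes that fell, Apoe, the lipid carrier apolipoprotein E, stood at 459 and 1042 in f/f and 209 and 377 in DKO (-1.30 ± 0.17, adjusted p 0.0172). Parp1, which marks DNA breaks with ADP-ribose, fell from 151 and 229 to 96.9 and 123 (-0.76 ± 0.13), Ipo5, a nuclear import receptor, from 211 and 222 to 129 and 144 (-0.66 ± 0.12), and the growth factor gene Hdgf from 305 and 282 to 190.4 and 162 (-0.74 ± 0.12). Polr2e, a subunit shared by the nuclear RNA polymerases, fell from 113 and 184 to 65.1 and 114 (-0.74 ± 0.11), and L1td1, an RNA-binding protein of pluripotent cells, from 171 and 190.3 to 75.7 and 97.3 (-1.06 ± 0.20). These are moderate differences, all with both DKO libraries below f/f in their pair, which the call requires. Rps10, Rpsa, Pgk1 and Stmn1 also passed the test, with differences of -0.57, -0.51, -0.73 and -1.09. Their levels differ greatly between replicates (Rpsa stood at 4.35 and 1244 in f/f and 2.64 and 900.1 in DKO), and copies of them elsewhere in the genome can share reads, so these 4 are uncertain. With quantile scaling the calls of Parp1, Ipo5, L1td1, Rps10 and Rpsa were lost.

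Genes were then read by group. The 45 lists with tested members held 753 genes, of which 26 rose and 46 fell. That is 9.56% called, against 4.24% of all tested genes. Earlier results of these data were known when the lists were chosen, so nothing is read from this share. For all tested genes the median difference was 0.02, and each list's median is given beside its counts. With quantile scaling the medians of the KMT2 complex, DNA methylation, Wnt, extraembryonic endoderm and glycolysis lists, all near 0, changed sign. The medians of the epithelial, junction, Notch and Hedgehog, interferon, germline and immediate early lists kept theirs with quantile and median-of-ratios scaling. Counts and medians cover tested members only. A gene low in f/f could pass the filter on low levels through the libraries where it is high, which can raise a list median. Below the filter on low levels stood 32 of 39 Hox genes, 9 of 27 interferon genes, 8 of 37 imprinted genes, 8 of 25 Notch and Hedgehog genes, 7 of 31 germline genes, and 0 to 8 genes of each other list.

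Of the regulators of chromatin, those of the deleted complex itself were not called. None of 14 tested genes of the KMT2 complexes passed (median -0.04). Ncoa6, a partner of MLL3 and MLL4, stood at 7.17 and 6.42 in f/f and 10.6 and 13.4 in DKO (adjusted p 0.115), and Kmt2b at 20.4 and 26.2 in f/f and 16.5 and 18.6 in DKO (adjusted p 0.15). None of 15 Polycomb and histone demethylase genes passed (median -0.09), although Ezh1, a catalytic subunit of Polycomb repressive complex 2, stood at 11 and 13.3 in f/f and 5.74 and 6.27 in DKO (adjusted p 0.0558) and was called with quantile and with median-of-ratios scaling. None of 12 enhancer coactivator genes passed (median -0.08). Of 14 DNA methylation genes only Dnmt3l passed, and it fell (median -0.01). Dnmt3b, a de novo methyltransferase, stood at 94 and 74 in f/f and 20.8 and 12.4 in DKO (adjusted p 0.132), and Tet2, a methylcytosine dioxygenase, at 10.8 and 17.4 in f/f and 20.1 and 39.2 in DKO (adjusted p 0.467).

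Some receptors and a ligand of the Notch and Hedgehog pathways fell, while other members were higher in DKO without a call. Of 17 tested genes 4 fell and none rose, with a list median of -0.74 and differences from -1.55 to 1.14. At least 2-fold different in both pairs were 5 genes lower and 1 gene higher, the latter not called. Notch1 and Notch3, both receptors, stood at 17.5 and 12 in f/f and 5.94 and 4 in DKO and at 15.9 and 28.3 in f/f and 7.36 and 9.48 in DKO. They fell by 1.40 ± 0.23 (adjusted p 0.0337) and 1.25 ± 0.20 (adjusted p 0.0302) on the log2 scale. Jag2, a Notch ligand, fell from 13.7 and 16.7 to 8.69 and 10.4 (-0.62 ± 0.12, adjusted p 0.0495). All 3 were lower in DKO in each pair, and the call of Jag2 was lost with quantile and with median-of-ratios scaling. Notch4, at 4.09 and 9.76 in f/f and 1.15 and 2.12 in DKO, was not called (adjusted p 0.0515) but was with either of those scalings. Ptch1, the Hedgehog receptor and a target of its own pathway, stood at 33.6 and 33.2 in f/f and 10.8 and 10.6 in DKO, a drop of the same size in both pairs (-1.55 ± 0.20, adjusted p 0.0172).

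In the Nodal pathway 2 of 18 genes fell and none rose (median 0.08). Foxh1, the factor that carries SMAD2 and SMAD3 to their targets, stood at 30 and 25.4 in f/f and 6.16 and 6.39 in DKO and fell by 1.98 ± 0.15 (adjusted p 0.0116). It was lower in both DKO libraries, while the coreceptor Tdgf1, not called, stood at 114 and 288 in f/f and 236 and 659 in DKO (adjusted p 0.0558) and was called with median-of-ratios scaling. Lefty1, a Nodal inhibitor, stood at 79.7 and 209 in f/f and 14.8 and 81.3 in DKO (adjusted p 0.108).

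Among 21 Wnt genes 1 rose and 2 fell (median 0.05). The ligand gene Wnt7b fell from 12.1 and 4.45 to 2.24 and 0.463 and the receptor gene Fzd7 from 47.3 and 57.7 to 20.2 and 19.9, while Cdx1, a Wnt-responsive homeobox gene, rose from 2.23 and 0.768 to 9.75 and 4.17. Among 21 FGF and ERK genes Etv1, an ETS factor induced by the pathway, was the only call, and it rose from 2.04 and 2.91 to 4.05 and 8.89. Among 15 LIF and STAT3 genes Socs2, a feedback inhibitor of cytokine receptors, was the only call, and it fell from 52.2 and 35.2 to 18.3 and 11.5 (-1.50 ± 0.15, adjusted p 0.0116). Lifr, the LIF receptor, stood at 11.3 and 7.77 in f/f and 14 and 14.8 in DKO (adjusted p 0.434). None of 14 BMP genes was called (median 0.23). Of 19 receptor tyrosine kinase genes 2 rose and 2 fell (median -0.09). Beside Epha2, the insulin-like growth factor receptor Igf1r rose by 0.61 ± 0.11, while Erbb3 fell by 1.31 ± 0.23 and Ephb4 by 0.76 ± 0.12.

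Epithelial genes had more decreases than any other list. Of 20 genes of epithelial regulators and keratins 8 fell and none rose (median -0.93). Lad1, an anchoring filament protein, fell from 15.6 and 11.6 to 3.66 and 1.6, the membrane protease gene Prss8 from 10.8 and 9.67 to 3.35 and 1.27 and the transcription factor gene Grhl2 from 11.4 and 10.9 to 4.12 and 1.71. Esrp1, which directs epithelial splicing, fell from 34.3 and 30 to 6.62 and 4.19 (-2.40 ± 0.17, adjusted p 0.0116). Each of these was lower in DKO in each pair, and the call of Lad1 was lost with quantile scaling. Of 23 junction genes 4 fell and none rose (median -0.39). Cdh1, the gene of E-cadherin, stood at 119 and 108 in f/f and 50.7 and 32.5 in DKO, and the tight junction scaffold Tjp3 at 17.1 and 27.6 in f/f and 6 and 7.09 in DKO (-1.60 ± 0.15, adjusted p 0.0116). The plakoglobin gene Jup fell by 0.85 ± 0.14. Other members differed upward without a call, such as the junction protein gene Jam2, which stood at 14.9 and 17.5 in f/f and 53.7 and 92.1 in DKO (adjusted p 0.141). Of 19 basement membrane and integrin genes Itga3 rose (0.85 ± 0.16) and Itgb5 fell (-0.91 ± 0.18), with a median of 0.23. With median-of-ratios scaling the call of Itga3 was lost.

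Of 23 germline genes Hormad2, of the meiotic chromosome axis, rose from 1.05 and 0.656 to 12.2 and 13.2 (2.89 ± 0.25, adjusted p 0.0116). Prdm1, the repressor that specifies primordial germ cells, fell from 5.98 and 6.69 to 1.68 and 1.46 (-1.51 ± 0.20, adjusted p 0.0184). Over the tested germline genes the median was 0.73. Members low in f/f could pass the filter through the libraries where they are high, so nothing is read from this median. Ddx4, the vasa helicase of germ cells, stood at 4.59 and 4.91 in f/f and 11.7 and 18.3 in DKO (adjusted p 0.0974), and Sohlh2 at 2.73 and 2.88 in f/f and 9.99 and 20.7 in DKO (adjusted p 0.167). Among 28 imprinted genes 4 rose and 3 fell (median 0.25). The 3 that fell, Meg3, Rian and Mirg, are maternally expressed noncoding RNAs of 1 locus, and Rian went from 27.8 and 94.1 to 9.76 and 12.8 and Meg3 from 12.2 and 36 to 4.46 and 7.56. Dio3, a thyroid hormone deiodinase expressed from the paternal copy of the same locus, rose from 1.42 and 0.174 to 4.42 and 2.44. With quantile scaling 4 of the 28 were called, and the calls of Meg3, Rian and Dio3 were lost. Of 39 Hox genes 32 were below the filter, and a gene this low could pass it through the libraries where it is high, so nothing is read from the 7 tested. Hoxb13 was the only call among them, and Hoxa10 stood at 0.445 and 0.221 in f/f and 4.52 and 6.78 in DKO (adjusted p 0.0817).

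Of 17 interferon and antigen presentation genes 3 fell and none rose (median -0.22). Ifitm3, a neighbour and paralog of Ifitm1, fell from 217 and 194 to 71 and 72.2 (-1.50 ± 0.12, adjusted p 0.0116), and Ddx58, the RNA sensor RIG-I, from 8.13 and 8.36 to 2.49 and 2.19 (-1.47 ± 0.18, adjusted p 0.0172). Each fell by a similar amount in both pairs. The antigen presentation gene B2m stood at 17.5 and 49.1 in f/f and 34.2 and 58.9 in DKO (adjusted p 0.248). Of 19 immediate early genes Atf3 and Egr2 rose and none fell (median 0.68). Egr2, a zinc finger factor induced by growth factors, went from 8.79 and 3.72 to 26.2 and 15.6, and Fos stood at 71.5 and 109 in f/f and 148 and 283 in DKO (adjusted p 0.155).

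Of 31 genes of glycolysis and hypoxia Slc2a1 rose and 3 fell (median -0.08). Pfkl, a phosphofructokinase, fell from 101 and 141 to 60.8 and 75.9 (-0.80 ± 0.11, adjusted p 0.0218), and Bnip3, a mitophagy receptor induced by hypoxia, from 19.3 and 46.5 to 8.31 and 22.1 (-1.08 ± 0.19, adjusted p 0.0359). Pgk1, a glycolytic kinase gene, was the third, and it is uncertain because of its copies. None of 25 respiratory chain genes (median 0.04) and none of 22 cholesterol synthesis genes (median 0.07) was called, though 1 of the latter was with median-of-ratios scaling. Tfe3, a factor that drives lysosome genes, fell from 52.3 and 37.4 to 27.5 and 17.7, while the cathepsin gene Ctsh rose from 0.268 and 0.428 to 1.31 and 2.26. They were the only calls among 18 lysosome genes (median 0.02), and that of Ctsh was lost with quantile scaling. Gstm1, a glutathione transferase, fell from 45.5 and 44.7 to 11.3 and 16.1 (-1.67 ± 0.17, adjusted p 0.0116), and Gpx3, a secreted peroxidase, rose from 7.15 and 11.4 to 14.2 and 18.5. These were the only calls among 17 genes of glutathione and redox control (median -0.14).

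E2f2 was the only call among 25 genes of the cell cycle and replication (median 0.12), and Mki67, a marker of cycling cells, stood at 51.2 and 62.7 in f/f and 68.2 and 78.2 in DKO (adjusted p 0.212). Among 20 genes of p53, arrest and apoptosis Sesn1 and Bak1 rose, by 0.99 ± 0.19 and 0.73 ± 0.15 (median 0.20). With median-of-ratios scaling 0 of the 20 were called, and Sesn1 was not called with quantile scaling either. Cdkn1a, a p53 target, stood at 49.2 and 40.1 in f/f and 104 and 52.9 in DKO (adjusted p 0.131). None of 12 genes of the Myc network was called. Mycn stood at 113 and 144 in f/f and 46.9 and 63.5 in DKO (adjusted p 0.0947) and Myc at 14.1 and 10.8 in f/f and 49 and 16.1 in DKO (adjusted p 0.106).

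None of 13 germ layer and primitive streak genes was called, and neither was any of 16 neuronal genes. The neural gene Sox1 stood at 0.215 and 0.149 in f/f and 2.38 and 1.37 in DKO (adjusted p 0.115) and the primitive streak gene Eomes at 4.36 and 1.48 in f/f and 5.66 and 4.34 in DKO (adjusted p 0.202). In extraembryonic endoderm Sox7 rose and Apoe fell among 10 genes (median 0.02). In trophoblast Gata2 rose and Tfap2c and Wnt7b fell among 10 (median 0.09). In the primed epiblast Sox3 rose (1.52 ± 0.28, adjusted p 0.0407) and Zic5 fell (-0.94 ± 0.15, adjusted p 0.0291) among 11 (median 0.32). With quantile scaling the calls of Gata2 and Sox3 were lost. Of the 45 lists, 16 had tested members and none called by limma. They held 247 genes, of which 54 had an unadjusted p under 0.05 and 5 were at least 2-fold different in both pairs. Of the 247, edgeR called 3 and DESeq2 called 25. Over all genes, 2743 of 12466 had an unadjusted p under 0.05 and 3.13% were at least 2-fold different in both pairs. Of the 15113 genes that each of them fitted, edgeR called 680 and DESeq2 called 1504. These lists were picked out for having no call, so nothing is read from their counts. None of the genes listed for cells of the 2-cell-like state passed the filter on low levels.

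The remaining lists had at most 3 calls each. In core pluripotency, Sall4 and L1td1 fell among 14 genes and none rose (median -0.47). With quantile scaling 0 of the 14 were called. Of 18 naive pluripotency genes Dppa3 and Fbxo15 fell and none rose (median 0.15). Among 26 small GTPase genes Mras rose and Rab25 fell (median 0.04). Slc38a5 was the only call among 24 amino acid transporter genes (median 0.18), where the arginine transporter gene Slc7a1 stood at 11.8 and 23.6 in f/f and 40.2 and 47.8 in DKO (adjusted p 0.129). Among 21 glycosyltransferase and sulfotransferase genes Chst5 and the fucosyltransferase gene Fut10 rose, and B3gnt7, which extends keratan sulfate chains, fell (median 0.10). Fut10 went from 1.87 and 0.655 to 4.49 and 2.65, a call lost with quantile scaling, and B3gnt7 from 47.3 and 48 to 21.1 and 11.8. Of 10 housekeeping genes Tfrc, the transferrin receptor, was the only call, falling from 64.2 and 34.2 to 27.9 and 21.5 (median 0.07).

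Lists without a call included 18 genes of the integrated stress response (median 0.28) and 15 of heat shock and the unfolded protein response (median 0.30). They also included 15 YAP and TEAD genes (median 0.07), 10 retinoid genes (median 0.07) and 5 genes of X-linked clusters (median 0.44). The 20 ribosomal protein genes had no call and a median of -0.34, which was -0.10 with quantile scaling. Their levels lay far apart between the replicates for several members, such as Rps2 at 143 and 2765 in f/f and 102 and 2126 in DKO (adjusted p 0.143).

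**Figure D3:**
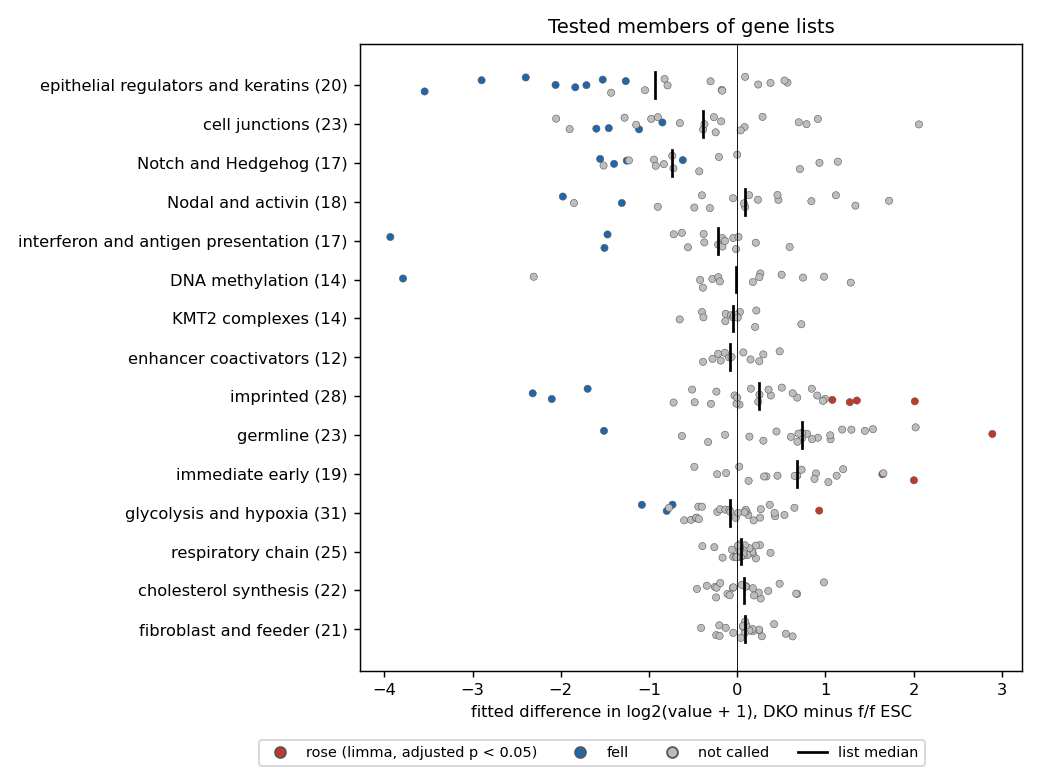
Fitted difference in log2(level + 1) between DKO and f/f ESC (x axis) for each tested member of several gene lists, with the number of tested members in brackets; red rose, blue fell, grey was not called, and the black bar is the list median. Epithelial, junction, and Notch and Hedgehog genes lie mostly left of 0, germline and immediate early genes mostly right, and KMT2 complex, coactivator and respiratory chain genes close to 0. Germline genes low in f/f could pass the filter through the libraries where they are high, so nothing is read from the place of that list.

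In the gene order of GRCm38.p6, used for order only, 12 of the genes that rose and 45 of those that fell had a directly adjacent tested gene called in the same direction. They formed 27 runs, of which 3 held 3 genes and none more. The numbers expected from the shares called are not given here, so nothing is read from these counts. The 3 longer runs were Gstm3, Gstm2 and Gstm1, then Bnipl, Prune1 and Mindy1, then Cabp7, Nf2 and Nipsnap1, and all fell. The first run has a median difference of -1.89, but these are paralogs whose reads the counting could have split. Gstm2 went from 11.8 and 17.5 to 2.47 and 3.99 and Gstm3 from 9.85 and 10.7 to 0.927 and 1.74. Pairs included Dusp27 with Gpa33 and Dnmt3l with Icosl among the decreases, and Camk2a with Cdx1 and Slc38a5 with Ftsj1 among the increases. With quantile scaling the calls of Nipsnap1, Cdx1 and Ftsj1 were lost. Where neighbours overlap or run antisense, reads cannot be assigned, since the sources used here give no strand setting. Over windows of 50 consecutive genes the median difference lay between -0.26 and 0.27.

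The same genes were read in day-4 bodies, which are separate libraries but share the fit. A call in bodies needed only an adjusted p under 0.05, without the rule on the sign in both pairs. In ESC that rule had removed 0 genes. In bodies 103 of 12466 genes rose (0.826%) and 450 fell (3.61%), 4.44% in all. Of the 333 genes lower in DKO ESC, 310 had the same sign in bodies, 108 also fell there and none rose, with a median difference of -0.57. Of the 196 genes higher in DKO ESC, 152 had the same sign, 29 also rose and 7 fell, with a median of 0.31. The share of all tested genes with the same sign at both stages is not given here. Both stages also share each gene's estimate of spread, so a gene with a small spread is called more readily at both. Nothing is therefore read from the size of this agreement. Esrp1 also fell in bodies, with 37.4 and 29.8 in f/f and 4.57 and 4.94 in DKO (-2.58 ± 0.17, adjusted p 0.0062), and Hormad2 also rose, standing at 1.12 and 0.197 in f/f and 17 and 9.73 in DKO (3.13 ± 0.25, adjusted p 0.00877). Etl4 (-2.04 ± 0.24) and Rhpn2 (-2.01 ± 0.29) also fell in bodies, and A2m (2.84 ± 0.36), Catsperz (1.95 ± 0.22) and Isoc2a (1.34 ± 0.17) also rose.

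For other genes with large ESC differences no call was made in bodies. Tdrd12 stood at 7.87 and 3.96 in f/f and 7.22 and 5.04 in DKO in bodies (0.09 ± 0.41, adjusted p 0.926), Pla2g1b at 31.8 and 14.5 in f/f and 26.7 and 15.3 in DKO (-0.09 ± 0.22, adjusted p 0.857), and Slc38a5 at 1.21 and 0.66 in f/f and 0.676 and 1.63 in DKO (0.13 ± 0.46, adjusted p 0.9). For the 3 genes the test of the difference between the stages gave adjusted p values of 0.146, 0.0865 and 0.2, so none passed.

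The 7 genes that rose in ESC and fell in bodies were Atf3, Sox3, Itga3, Myadm, Gpr4, Zfp36l2 and Emb. Atf3 differed by 2.00 ± 0.18 in ESC and by -1.04 ± 0.18 in bodies, with body levels of 4.58 and 5.34 in f/f and 2.12 and 1.69 in DKO. The neural and epiblast factor Sox3 differed by 1.52 ± 0.28 in ESC and by -2.15 ± 0.28 in bodies, with body levels of 14.3 and 15.7 in f/f and 1.97 and 3.35 in DKO. Itga3, an integrin that binds laminin, differed by 0.85 ± 0.16 in ESC and by -1.85 ± 0.16 in bodies. All 3 were higher in DKO than in f/f in both ESC pairs and lower in both body pairs. The direct test of that difference did not reach 0.05 after adjustment, at 0.0657 for Atf3, 0.0657 for Itga3 and 0.0709 for Sox3. Myadm, Gpr4 and Zfp36l2 were named after their values were seen, and with median-of-ratios scaling the ESC call of Zfp36l2 was lost. Over all genes limma called 0 differences between stages (13.7% at an unadjusted p under 0.05), edgeR called 0 and DESeq2 called 444. Of the 155 genes named here, limma called 35 when the replicates were fitted separately at each stage, and DESeq2 called 45.

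**Figure D4:**
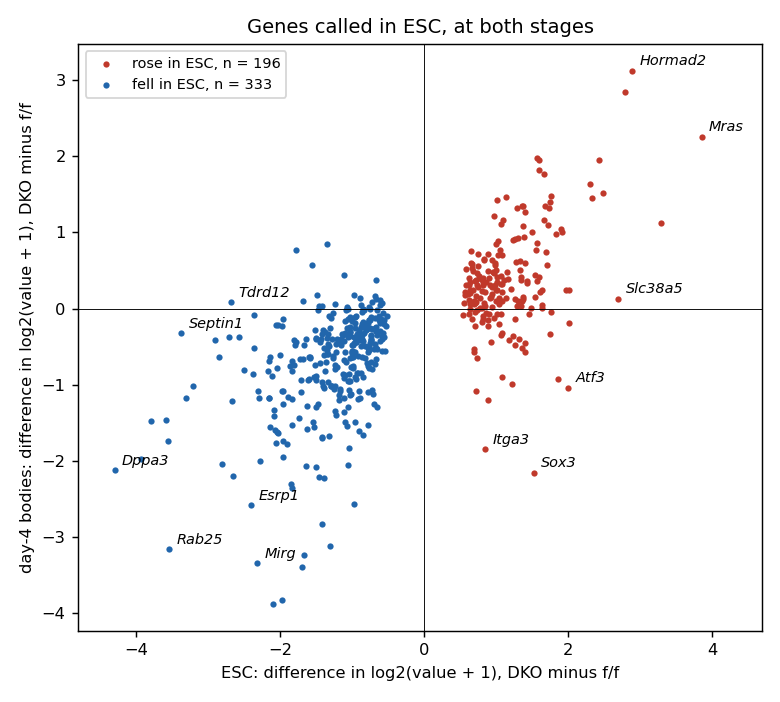
Fitted difference in log2(level + 1) between DKO and f/f in ESC (x axis) and in day-4 embryoid bodies (y axis) for the 196 genes that rose (red) and the 333 that fell (blue) in ESC. Most blue points lie below 0 on both axes, while red points spread on both sides of 0 in bodies, with Atf3, Sox3 and Itga3 low there.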

How the data were processed

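Poly(A) RNA of ESC and day-4 embryoid bodies was sequenced, and 8 libraries were used. Per the file headers, the deposited values are read counts and RPKM for each RefSeq transcript in replicate 1 and FPKM for each gene in replicate 2. Named in the submitters' processing notes are mm9 for all, bedtools 2.16 and SICER 1.1 for replicate 1, and CASAVA 1.8.2 and SICER for replicate 2. Aligner and strand setting are not given in the sources used.

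Transcripts were joined by accession to RefSeq genes of GRCm38.p6 (28436 of 29082 matched; coordinates not used), and each gene was represented by its transcript with most reads. Depth behind the deposited counts was recovered as the most frequent greatest common divisor of the scaled ratios of count to RPKM. Transcript lengths then followed from that depth. Behind the deposited FPKM, depth was recovered from steps of 1 read among genes under 20 reads. The reads of these genes were whole within 0.02 reads for 91.5% to 92.3% of values per library. No such FPKM column was used as counts in the main test.

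Genes averaging 1 or more across the 8 libraries entered limma 3.58.1 (R 4.3.3, two-sided, empirical Bayes with trend), on log2(value + 1), with terms for the 4 groups and the replicate pair (3 residual and 3.27 prior degrees of freedom). The replicate number was used as a block because libraries of the same number deviated together from their group means (correlations of 0.864 to 0.954), and because their units differ. edgeR 4.0.16 and DESeq2 1.42.0 were run on counts of replicate 1 and reads estimated from FPKM for replicate 2. The code was tested on simulated data.

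Named were Kmt2c and Kmt2d, the 25 largest called changes and the 10 most abundant called genes in each direction, up to 6 members of each of 46 lists, cell type markers, and neighbours of called genes. Genes without a symbol word (4 that rose, 9 that fell) were counted and not named, and a few other members of lists are not reported here. The comparison, its members and the lists were chosen with earlier results of these data known. Chromatin samples, fibroblasts and day-20 cells were not analysed here.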

Additional observations from a re-analysis of the deposited data

How the results depend on the processing

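The counts of called genes depended on the setting, and the cause was not tested. Calls under other settings used the adjusted p alone, without the rule on the sign in both pairs. In the main fit that rule had removed 0 genes. In place of 529 called genes (196 higher, 333 lower), 1869 were called from the 4 ESC libraries alone (837 and 1032), 1428 with a replicate term for each stage (615 and 813), 1504 by DESeq2 (618 and 886), and 207 with no filter on low levels (55 and 152). Without the replicate block limma called 0 (1232 at an unadjusted p under 0.05), and no higher or lower gene. Leaving out 1 library at a time, in a fit that takes the lone library of its group to vary like the others, gave 0 to 743 genes, 0 to 297 higher and 0 to 446 lower. Called list members, 72 of 753, became 239, 184, 172, 26 and 0 under those 5 settings in the same order as above (ESC alone, term for each stage, DESeq2, no filter, no block), and 0 to 102 with 1 library left out. The 2-fold rule, 390 genes (144 higher, 246 lower), gave 638 (288 higher) with a pseudocount of 0.1, 144 (40 and 104) with a pseudocount of 5, and 259 (80 higher) at a mean level of at least 5. It needs both pairs and had no leave-one-out value. Differences between stages among the named genes went from 0 to 35 with a replicate term for each stage and 45 with DESeq2, and stayed at 0 with edgeR, no replicate block, the other scalings, filters and pseudocounts, and 1 library left out.

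Of 155 named genes, 123 were called. None of those 123 changed direction under any setting in which it was tested. A call requires the same sign in both pairs, so this was largely fixed in advance. Among genes not called, Zfp42 reversed to 0.11 with quantile scaling. With 1 library left out the sign also varied for Zfp42 (-0.72 to 0.67), Kmt2c (-0.44 to 0.18), Esrrb (-0.45 to 0.84), Sox2 (-1.02 to 0.11) and Col1a1 (-0.84 to 0.44). Of the 123, 111 were called by edgeR, 123 by DESeq2, 118 with median-of-ratios scaling, 104 with quantile scaling and 120 with reads summed over transcripts. With 2 libraries per group, a p that missed the threshold does not show that a gene kept its level. Depth limits genes with a few reads in f/f, such as Hoxb13, Gpr83 and Mira.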
